A study of Mus musculus with 2 samples.

Results

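The genes described here write, maintain and erase methylation at CpG dinucleotides, namely *Dnmt1*, *Uhrf1*, *Dnmt3a*, *Dnmt3b*, *Tet1*, *Tet2*, *Tet3* and *Tdg*. They were chosen by symbol, and all 8 are among the 21041 genes of a deposited RNA-seq table. It holds 1 library of CD4+CD8+ double-positive (DP) thymocytes of WT mice and 1 of *Cxxc1*-deficient mice. In the study WT stands for *Cxxc1* fl/fl mice that carry no Cre, and deficient mice are *Cxxc1* fl/fl h*CD2*-Cre, so that both carry the floxed alleles, although the genotype label of the deficient sample reads Cxxc1+/-. Cre driven by human *CD2* sequences deletes exons 4 and 5 in early thymocytes and also in other immune cells. The floxed allele was made in ES cells of strain 129 and then crossed onto C57BL/6, and mice were 3 to 4 weeks old unless stated otherwise. The sex of the mice and the number that went into a library are not given in the sources used here.

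DNA methylation is set and removed in steps that these genes divide between them. DNMT3A and DNMT3B place new methyl groups on cytosine, DNMT1 copies the pattern onto the daughter strand at replication, and UHRF1 recognises hemimethylated CpG and brings DNMT1 to it. The TET dioxygenases oxidise methylcytosine, and thymine DNA glycosylase (TDG) excises the most oxidised forms, which base excision repair replaces with cytosine. CXXC1 binds unmethylated CpG, belongs to the SETD1 complex that trimethylates H3K4, and is a known partner of DNMT1. The comparison asks how transcripts of this machinery differ between WT and *Cxxc1*-deficient DP thymocytes. DNMT1 protein and total methylcytosine were measured by other assays in the study and were not analysed here. The study reported no change of either in deficient DP cells.

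The deposited values behave as read numbers per transcript length times a factor for each library, so levels of different genes can be compared per length. At 959 olfactory receptor genes with a single annotated length, 1 read on 1 kb was worth about 4.06 in WT and 4.71 in deficient cells. With these steps, 86.7% of their WT values above 0 and 86.0% of the deficient ones lay within 0.2 of a whole read, where even spacing would give 40%. By this estimate the 19090 genes matched to GENCODE vM1 hold about 1403846 reads in WT and 724168 in deficient cells. Each gene was taken at its longest annotated transcript. Olfactory receptor genes, which thymocytes are not known to use, served as the background, with a median of 22 in WT and 24 in deficient cells and 95th percentiles of 53.95 and 57. No difference has a replicate check, since each genotype has a single library, and the 95% intervals below rest on approximate reads on the longest annotated transcript and cover counting error only. *Cxxc1* itself was listed at 91 in WT against 50 in deficient cells, a ratio of 0.549 (0.338 to 0.877). The table gives 1 value for the whole gene and none for the deleted exons, and 50 lies under the olfactory receptor 95th percentile of 57. By qPCR the study found *Cxxc1* mRNA nearly absent from deficient DP cells, so the ratio is not read as the degree of deletion. All 14 DP markers were lower in deficient cells as deposited, beside 60.0% of all genes and 95.2% of those averaging 100 or more. With the libraries at the same median over genes averaging 100 or more, 11 still were. *Dntt* was listed at 1859 against 172 and *Tcf7* at 5826 against 4461. All 6 markers of the earlier double-negative (DN) stage were higher, beside 37.2% of all genes, or 5 after the olfactory receptor median was subtracted. Their sum was 341 in WT against 846, with *Il2ra* at 63 against 207 and *Kit* at 35 against 36. Each of 5 Y chromosome genes was listed at 0 in WT and at 9 to 67 in deficient cells (*Eif2s3y* at 67), so the deficient library held male cells and the WT library showed none. Sex and genotype therefore cannot be told apart for any gene.

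Of the 8 genes, 5 were expressed above the background in both libraries, namely *Dnmt1*, *Dnmt3a*, *Tet1*, *Tet2* and *Tet3*. As deposited, all 5 were lower in deficient cells, but *Tet1* and *Tet2* were higher with the libraries at the same sum without the 100 highest genes, and *Dnmt1* and all 3 *Tet* genes were higher with the same median over genes averaging 100 or more. *Dnmt3a* had a ratio below 1 under each scaling, but with that median it was 0.975 with an interval from 0.814 to 1.16, so no direction was detectable there. The remaining 3, *Uhrf1*, *Dnmt3b* and *Tdg*, stood within or under the background of olfactory receptor genes. The 5 lower members of 8 are read against 60.0% of all 20125 genes above 0 in either library, and the 2 higher members, *Dnmt3b* and *Tdg*, against 37.2%. At 2-fold, *Dnmt3a* was the 1 member lower, beside 17.4% of all genes, and *Tdg*, listed at 0 in WT, was the 1 counted as higher, beside 5.89%. The median log2 ratio of deficient to WT was -0.47 over the members and -0.20 over all genes. In bulk RNA, fewer cells that express a gene and less RNA per cell cannot be told apart.

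**Figure D1:**
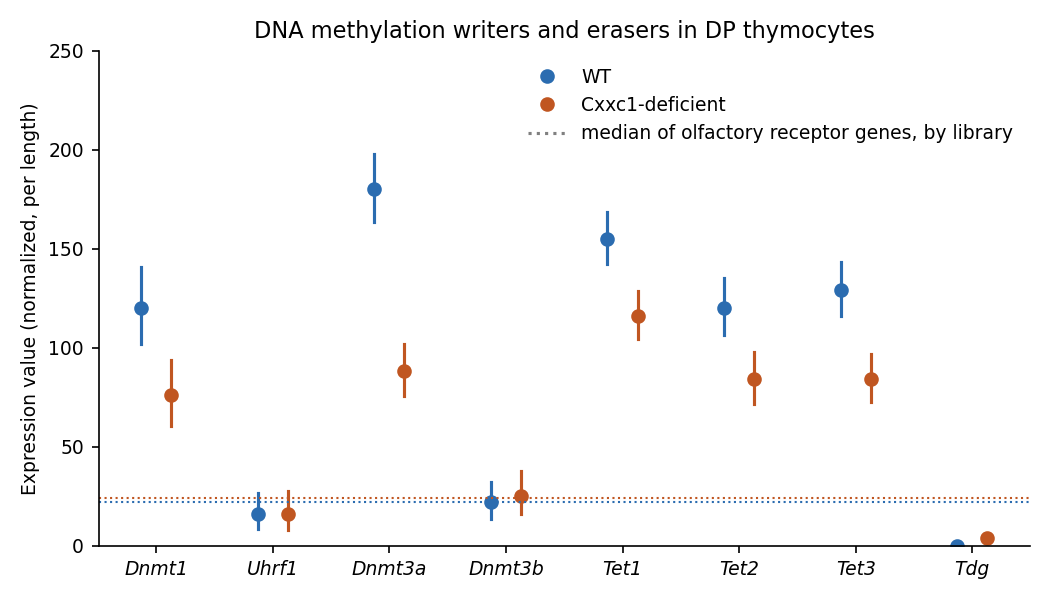
Normalized expression value per length of the 8 genes in the WT library (blue) and the *Cxxc1*-deficient library (orange), with exact Poisson 95% intervals from approximate reads as vertical lines (none for *Tdg*) and the olfactory receptor medians of 22 and 24 as dotted lines. *Dnmt1*, *Dnmt3a* and the 3 *Tet* genes lie above the dotted lines and have lower deposited values in deficient cells, a direction that 2 scalings turn for *Tet1* and *Tet2* and 1 for *Dnmt1* and *Tet3*, whereas *Uhrf1*, *Dnmt3b* and *Tdg* lie near or under the lines.

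*Dnmt3a* encodes a de novo methyltransferase and had the highest WT level of the 8 genes. It lies on the plus strand of mm9 chromosome 12 from 3806007 to 3914443. The WT library had 180 and the deficient library 88, from about 430 and 181 reads, and the Poisson intervals of 163 to 198 and 75.6 to 102 did not overlap. On the shortest annotated transcript the same values would be 16 and 7 reads, and the intervals of 101 to 286 and 35.9 to 184 would overlap. On the longest transcript the ratio was 0.489 (0.408 to 0.582, Clopper-Pearson), close to the threshold of 2-fold, and on the shortest its interval would run from 0.177 to 1.30. The study lists *Dnmt3a* among its CXXC1 target genes. These were selected by a CXXC1 binding site in or upstream of the gene and by their change in these same libraries. The ratio of *Dnmt3a* is therefore not independent evidence, and the binding was not examined here. *Dnmt3b*, the second de novo enzyme, lies on chromosome 2 from 153475186 to 153513466. Its values of 22 and 25 were those of the background, since 47.2% of olfactory receptor genes were lower in WT and 51.1% in deficient cells. The interval of its ratio ran from 0.622 to 2.16, so neither direction was detectable at this depth.

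*Dnmt1*, the maintenance methyltransferase, is on mm9 chromosome 9 (minus strand), between 20711650 and 20757317. It had 120 in WT against 76 in deficient cells, from about 156 and 85 reads. The Poisson intervals of 102 to 141 and 60.7 to 94.0 were separate, and the ratio was 0.633 (0.479 to 0.828). *Uhrf1*, the factor that guides DNMT1 to hemimethylated CpG, lies on chromosome 17 from 56442744 to 56462909. It was listed at 16 in both libraries, below the olfactory receptor medians. With about 14 and 12 reads, the interval of its ratio from 0.420 to 2.32 left a 2-fold difference in either direction undetectable. Of 22 proliferation genes, which mark the dividing cells where maintenance methylation takes place, 17 were lower in deficient cells as deposited, beside 60.0% of all genes. The count was 11 once the 75th percentiles were made equal and 1 with the same median over genes averaging 100 or more. At 2-fold 1 of the 22 was lower, beside 17.4% of all genes. It was *Gins2* of the replicative helicase, at 42 against 21, while *Mcm5* of the same machinery had 43 against 47. These values, and the medians of the list (40 in WT and 29 in deficient cells), lay under the 95th percentiles of olfactory receptor genes (53.95 and 57). The part of proliferation in the values of *Dnmt1* was not tested.

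The 3 genes for TET dioxygenases had similar levels, from 120 to 155 in WT and from 84 to 116 in deficient cells. *Tet1*, at 62267318 to 62361866 of chromosome 10 (minus strand), had 155 in WT against 116, from about 549 and 354 reads. Its ratio of 0.748 (0.653 to 0.857) was the nearest to 1 of the 5 expressed members, and it had the highest level of the 8 genes in deficient cells. *Tet2*, whose protein lacks the CXXC finger of its relatives, is found at 133126643 to 133207354 of chromosome 3 (minus strand). It had 120 in WT against 84, a ratio of 0.700 (0.573 to 0.852). *Tet3*, at 83312367 to 83391672 of chromosome 6 (minus strand), had 129 in WT against 84, a ratio of 0.651 (0.544 to 0.779). The intervals of the 3 ratios overlap one another and, as deposited, stay below 1. Summed, the *Tet* genes had 404 in WT against 284, and the 4 genes *Dnmt1*, *Uhrf1*, *Dnmt3a* and *Dnmt3b* had 338 against 205.

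*Tdg*, which encodes the glycosylase downstream of the TETs, lies on chromosome 10 from 82092573 to 82113544. It was listed at 0 in WT and at 4 in deficient cells, about 3 reads. *Btf3*, a translation-associated gene that cells use widely, was also listed at 0 in WT and 4 in deficient cells, so the 0 is given only as listed. The count at 2-fold and the median of the members used a floor of 1, which gave *Tdg* a ratio of 4.0. After subtraction of the olfactory receptor median its ratio was 1.0, and no fold of *Tdg* is read as a difference. These 3 poorly measured genes are also the members whose exons recur elsewhere in the genome, and reads of 50 bases were kept by the authors where they mapped uniquely. Of 3012 windows of 50 bases within *Tdg* exons, 2340 (77.7%) have an identical copy in NCBIM37, the assembly of mm9, and 84.3% lie within 2 mismatches of the copies. Of 2753 windows in *Uhrf1*, 28.3% have an identical copy and 68.5% one within 2 mismatches, and in *Dnmt3b* the shares are 10.6% of 3148 windows and 20.2%. The other 5 members have 0.671% or less. The sequences below are coding stretches of 100 bases with the copy of each, shown because a read that does not cover the differing base fits gene and copy equally well. Capitals mark the 1 base that differs. In NCBIM37 the *Tdg* stretch is chr10:82101485-82101584 (plus strand) and its copy is chr15:82346904-82347003 (plus strand) in *Gm5806*. The *Uhrf1* stretch is chr17:56452287-56452386 (plus strand) and its copy is chrX:118450070-118450169 (minus strand) in the pseudogene *Gm5648*. How far the copies set the values of these 3 genes was not tested.
Tdg: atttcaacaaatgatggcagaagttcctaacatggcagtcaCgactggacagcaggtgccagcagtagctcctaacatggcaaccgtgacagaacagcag
Tdg copy: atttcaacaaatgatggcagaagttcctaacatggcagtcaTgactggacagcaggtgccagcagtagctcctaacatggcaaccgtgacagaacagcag
Uhrf1: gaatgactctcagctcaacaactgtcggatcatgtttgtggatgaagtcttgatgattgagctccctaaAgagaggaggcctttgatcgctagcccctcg
Uhrf1 copy: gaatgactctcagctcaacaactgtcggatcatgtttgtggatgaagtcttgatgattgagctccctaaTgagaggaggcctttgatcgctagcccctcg

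**Figure D2:**
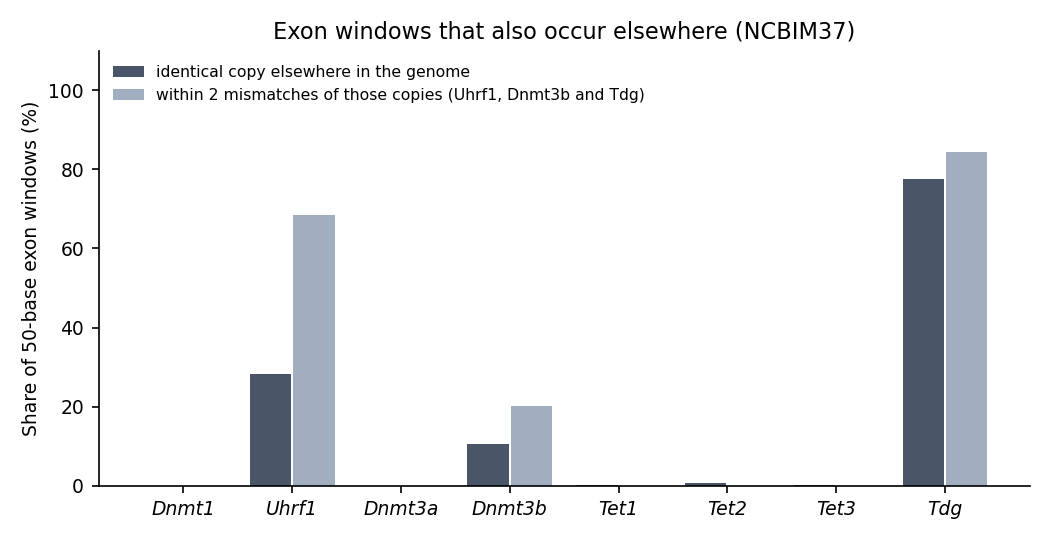
Share of 50-base windows within the exons of each gene, in percent, that recur elsewhere in NCBIM37 without a mismatch (dark bars) or, for *Uhrf1*, *Dnmt3b* and *Tdg*, within 2 mismatches of the copies (light bars). *Tdg* stands at 77.7% and 84.3%, *Uhrf1* at 28.3% and 68.5% and *Dnmt3b* at 10.6% and 20.2%, and the other 5 genes at 0.671% or less.

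Because the ratio of the libraries varied with expression level, each member was placed among genes of its own level. Of 2472 genes averaging 100 or more, 95.2% were lower in deficient cells and 56.8% were at least 2-fold lower, with a median log2 ratio of -1.08. All 4 members at that level were lower as deposited, the *Tet* genes with the exceptions by scaling given above, and 1 of the 4, *Dnmt3a*, was at least 2-fold lower. *Dnmt3a* (log2 ratio -1.03) stood at the middle of its level, where 53.8% of genes had a ratio as low or lower. The *Tet* genes stood higher, with such a ratio in 79.7% of genes for *Tet3* (-0.62), in 83.9% for *Tet2* (-0.51) and in 87.2% for *Tet1* (-0.42). *Dnmt1*, averaging 98, belongs to the 3657 genes from 50 to 100, whose median log2 ratio was -0.53. There, 40.7% of genes had a ratio as low as that of *Dnmt1* (-0.66) or lower, and 733 were at least 2-fold lower. *Uhrf1* (0) and *Dnmt3b* (0.18) lay among 13996 genes averaging under 50, whose median log2 ratio was 0. The place of *Dnmt1* depends on the cut at 100. *Tet3*, averaging 106.5, had nearly the same ratio, and the -0.66 of *Dnmt1* lies above the -1.08 of the upper level. These levels were cut on the deposited values, and another scaling would move genes between them.

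**Figure D3:**
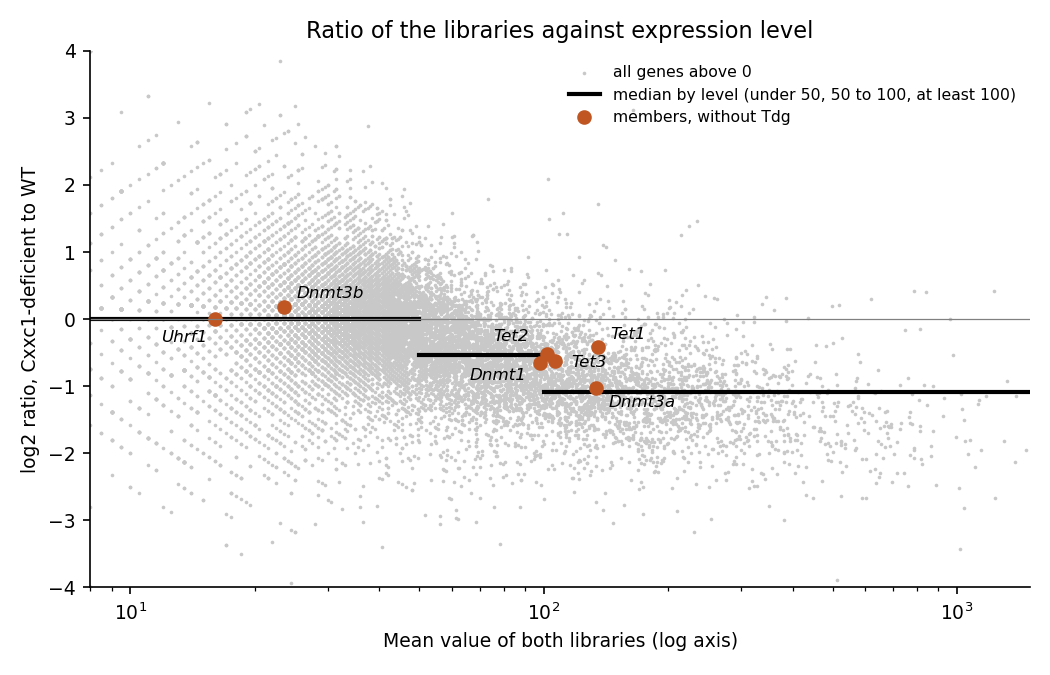
Log2 ratio of *Cxxc1*-deficient to WT against the mean value of both libraries (log axis) for all genes above 0 in at least 1 library (grey), with the median of each level as black bars (0, -0.53 and -1.08) and the members other than *Tdg* in orange (points beyond the axes are not drawn). *Dnmt3a* lies at the median of its level, *Tet1*, *Tet2* and *Tet3* lie above it, *Dnmt1* lies slightly under the median from 50 to 100, and *Uhrf1* and *Dnmt3b* lie in the cloud of low values. *Dnmt1*, averaging 98, is just below the cut at 100 and lies above the -1.08 of the upper level.

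Quotients of 2 members within a library do not depend on how the libraries are scaled. The level of *Dnmt3a* was 1.16 times that of *Tet1* in WT and 0.759 times in deficient cells, so the quotient changed by a factor of 0.653 (0.525 to 0.813). Relative to *Tet2* the quotient changed by a factor of 0.698 (0.538 to 0.906), and relative to *Tet3* by a factor of 0.751 (0.587 to 0.961). With reads on the longest transcripts these 3 intervals exclude 1, without adjustment for the 10 pairs compared, whereas with the shortest transcripts 0 of the 10 would. Relative to *Dnmt1* the factor was 0.772 (0.563 to 1.06), which includes 1. In the 6 pairs among *Dnmt1*, *Tet1*, *Tet2* and *Tet3* each interval included 1, and for *Dnmt1* against *Tet1* the factor was 0.846 (0.629 to 1.14). Differences among these 4 ratios were therefore not detectable at this depth. These quotients were chosen after the values were seen.

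**Figure D4:**
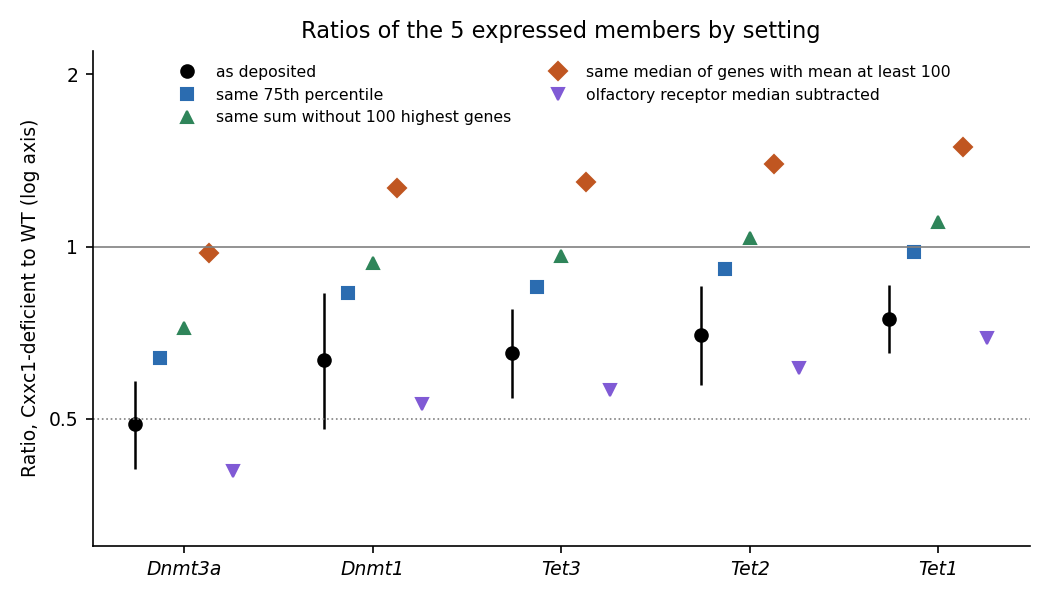
Ratio of *Cxxc1*-deficient to WT (log axis) of the 5 expressed members as deposited (black circles with 95% intervals), under 3 scalings and after subtraction of the olfactory receptor median, with a dotted line at 0.5. *Dnmt3a* stays below 1 throughout, from 0.405 to 0.975 (interval of the last 0.814 to 1.16), *Tet1* and *Tet2* pass 1 under 2 of the scalings, and *Dnmt1* and *Tet3* pass 1 under the same median over genes averaging 100 or more.

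A pattern of 2 values is shared by many genes. By Euclidean distance in log2(value + 1) over both libraries, 14 to 132 genes lay within 0.1 of a member. The nearest to *Dnmt3a* were *Phtf1* and *Csrp1*, to *Dnmt1* *D930016D06Rik* and *Acly*, to *Tet1* *Lgals8* and *Mycbp2*, to *Tet2* *Acpp* and *Gtf2h5*, and to *Tet3* *Abtb2* and *Itpkb*. The nearest to the genes at background were *Col1a1* and *Fbxw16* for *Uhrf1*, *Acsbg1* and *Fam166a* for *Dnmt3b*, and *Btf3* and *Gbp10* for *Tdg*.

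A further 56 genes of the pathway were followed in 5 lists. As deposited, 44 (beside 60.0% of all genes) were lower in deficient cells, 11 (beside 37.2%) higher and 1 equal, whereas 31 were lower once the 75th percentiles were made equal and 15 with the same median over genes averaging 100 or more. At 2-fold, 15 were lower and 2 higher, where 17.4% and 5.89% of all genes were, and the median log2 ratio was -0.48. The counts of each list below are read against the same shares of all genes. Of the 14 averaging 100 or more, 8 were at least 2-fold lower, beside the 56.8% of genes at that level. Among the 9 other writers and maintenance cofactors, all were lower as deposited and 3 under the last scaling, with 3 at least 2-fold lower as deposited. *Cdca7*, which brings the remodeller HELLS to hemimethylated DNA, had 134 in WT against 36, whereas *Zfp57*, which keeps imprinted loci methylated, had 54 against 49. Of 8 readers of methylated CpG, 7 were lower as deposited and 2 under the last scaling, with 2 at least 2-fold lower. *Mbd2*, the methyl-CpG-binding subunit of a NuRD complex, had 840 against 231, and *Mbd4*, a reader that is also a thymine glycosylase, had 55 against 60.

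In base excision and active demethylation, 12 of 18 genes were lower as deposited and 3 with the same median over genes averaging 100 or more, and 3 were at least 2-fold lower. *Gadd45a*, a stress gene implicated in demethylation, had 262 in WT against 73, and *Hmces*, which shields abasic sites, had 40 against 53. *Apex1*, the abasic endonuclease that acts after TDG, was listed at 0 in WT and 16 in deficient cells, the latter from about 4 reads. Of 11 genes of S-adenosylmethionine and one-carbon metabolism, 8 were lower as deposited and 2 under that scaling, and 2 were at least 2-fold lower. *Mat2a*, which makes the methyl donor, had 129 against 35, and *Shmt2*, a mitochondrial one-carbon enzyme, had 34 against 51. *Ahcy*, which clears the product of methyl transfer, was listed at 5 against 11, and 72.1% of its exon windows recur elsewhere. Of 11 TET cofactor and partner genes, 8 were lower as deposited and 5 under that scaling, and 5 were at least 2-fold lower. *Idh2*, which makes the TET cosubstrate 2-oxoglutarate, had 169 against 36. *Cdca7*, *Mbd2*, *Gadd45a*, *Mat2a* and *Idh2*, which had the lowest ratios of their lists among genes averaging at least 20, were lower under every scaling run. *Apex1* and *Ahcy* are the 2 pathway genes counted as at least 2-fold higher. Both lay under the olfactory receptor medians of 22 in WT and 24 in deficient cells, so neither fold is read as a difference. They were named after their values were seen.

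Proteins with a CXXC finger, the DNA-binding domain that CXXC1 shares with DNMT1, TET1 and TET3, formed a list of 12 genes that includes these members. As deposited 8 were lower, 3 higher and 1 equal, and with the same median over genes averaging 100 or more all 12 were higher. That scaling adds 1.00 to every log2 ratio, and 21 of the 22 proliferation genes were also higher under it. At 2-fold 0 of the 12 were lower and 0 higher as deposited, also among the 5 averaging 100 or more, at which level 56.8% of genes were lower by that much. With the olfactory receptor median taken off, which widens ratios by construction, 3 of the 12 were at least 2-fold lower. Under 2 of the scalings 1 and 3 were at least 2-fold higher, beside 17.2% and 37.2% of all genes. *Cxxc1* had the lowest ratio of the list. *Cxxc5*, a TET2 partner that is also in the TET list, had the highest, at 118 in WT against 166, and was higher under every scaling run.

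**Figure D5:**
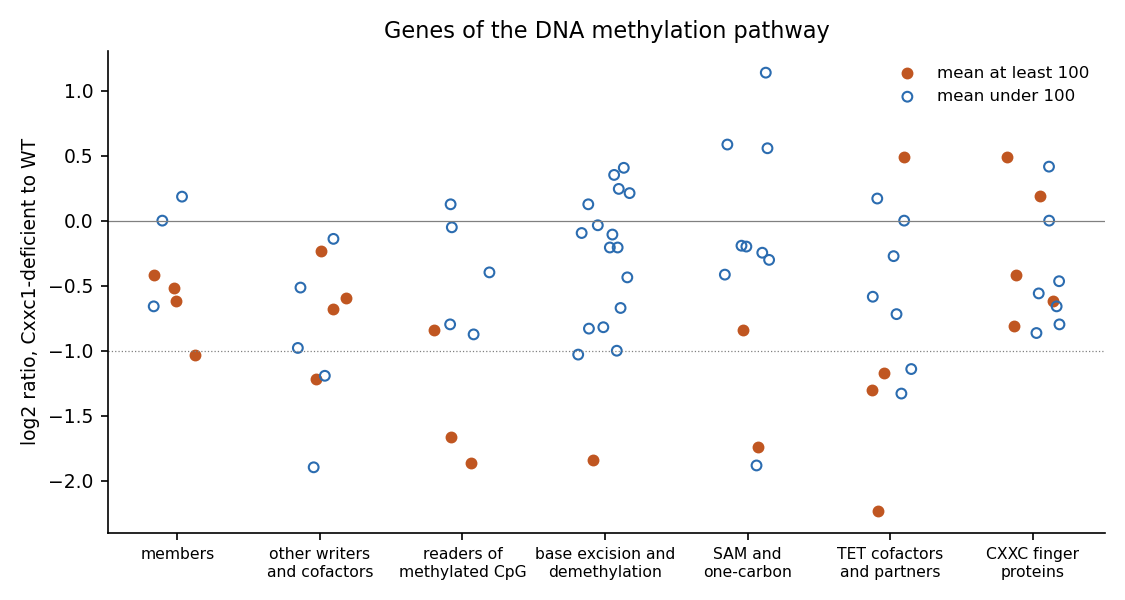
Log2 ratio of *Cxxc1*-deficient to WT, as deposited, for the members and 6 lists of related genes, 1 point per gene above 0 in WT (*Tdg* and *Apex1* are left out), filled where the mean is at least 100, with a dotted line at 2-fold lower. *Dnmt3a* lies just past the line, *Idh2* is the lowest point at -2.23, and no CXXC finger gene lies past the line, while other scalings would shift all points up together by up to 1.00.

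CXXC1 binds unmethylated CpG, so the promoters of the members were compared by their number of CG, a motif that reads the same on both strands. Windows of 300 bases around RefSeq starts (250 before, 50 after, GRCm38.p6) were used, with the CG-richest start of each gene. All 8 members matched by symbol. Over 15686 genes the median was 16 CG and 95.4% of genes had at least 1. *Tet2* had 57 CG and *Dnmt3a* 47, numbers that 0.217% and 2.24% of genes reach. *Dnmt1* and *Uhrf1* had 33 each, *Dnmt3b* 30, *Tdg* 26, *Tet3* 22 and *Tet1* 17. The 2 promoters below belong to the expressed members with the lowest and the highest ratio, with each CG in capitals over the 250 bases before the start. They match NCBIM37 at chr12:3806910-3807159 (plus strand, *Dnmt3a*, 40 CG) and chr10:62350073-62350322 (minus strand, *Tet1*, 15 CG). Both stretches lie inside the gene spans given above, which begin at 3806007 for *Dnmt3a* and, on the minus strand, at 62361866 for *Tet1*. For *Tet1* only 1 RefSeq start was available, and the outer end of its span was not examined. *Tet2* had the most CG and a ratio between those of *Tet3* and *Tet1*. Over 1917 genes averaging 100 or more, the median log2 ratio was -1.11 above the median of 25 CG and -1.04 at or below it. The study found only a small share of CXXC1 sites of DP thymocytes in CpG islands, and CXXC1 binding at these promoters was not examined here. A part of promoter CG in the ratios was not tested.
Dnmt3a: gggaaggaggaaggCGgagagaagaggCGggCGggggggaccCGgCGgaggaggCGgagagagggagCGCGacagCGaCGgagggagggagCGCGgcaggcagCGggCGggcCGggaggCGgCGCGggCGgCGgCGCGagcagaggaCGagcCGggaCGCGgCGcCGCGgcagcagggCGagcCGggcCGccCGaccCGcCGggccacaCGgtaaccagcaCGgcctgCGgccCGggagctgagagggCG
Tet1: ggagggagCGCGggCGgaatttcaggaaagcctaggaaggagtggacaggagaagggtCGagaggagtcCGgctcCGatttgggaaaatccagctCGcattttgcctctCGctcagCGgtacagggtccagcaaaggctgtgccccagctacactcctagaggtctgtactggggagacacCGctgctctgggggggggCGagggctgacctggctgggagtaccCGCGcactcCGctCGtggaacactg

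The libraries were also checked for markers of other cells that a thymus sample could hold. The 5 mature SP markers summed to 348 in WT against 298 in deficient cells (*Klf2* 27 against 39), and the 5 B cell markers to 162 against 120 (*Cd79b* 74 against 43, *Ms4a1* 20 against 25). Those of macrophages and dendritic cells summed to 249 against 254 over 7 genes (*Cd68* 50 against 35, *Csf1r* 24 against 35). Those of erythroid cells summed to 134 against 151 over 6 genes (*Klf1* 29 against 64, *Hba-a1* at 0 in both), and those of epithelium and stroma to 197 against 188 over 8 genes (*Psmb11* 32 against 25, *Pdgfra* 33 against 37). The part of these cells, and of the DN markers above, in the values of the DNA methylation genes was not tested.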

How the data were processed

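RNA-seq of DP thymocytes was analysed for 2 libraries, 1 per genotype, grouped by sample title. Reads of 50 bases were mapped to mm9 and uniquely mapped reads were analysed in Partek by the authors, and the submitters' processing notes also name CASAVA 1.8.2 and Bowtie 1.0.1. The deposited score is a normalized expression level for each gene, in whole numbers, whose exact unit and annotation are not given in the sources used here. All columns of the table were used (0 left out), and it holds no comparison made by the authors. Ratios were taken between values with a floor of 1, with 2-fold as threshold and no test. The step of 1 read was the best period of value times length over olfactory receptor genes, and reads used the longest GENCODE vM1 transcript (19090 genes matched by symbol). Ratio intervals are Clopper-Pearson and those of quotients are normal on the log scale. Exon windows were searched on both strands of NCBIM37. Scripts were tested on simulated data. The text names the members, *Cxxc1*, the 2 genes nearest to each member and, per list, the genes with the largest fall and rise among those averaging at least 20. Of these, 2 genes of the marker lists are not reported here. Members and lists were chosen with earlier results of these data known. Alternatives were 4 scalings, subtraction of the olfactory receptor median, pseudocounts of 1 and 10, a filter on low values, thresholds of 1.5-fold and 3-fold, and the shortest transcript. Counts lower per list under each scaling, the search for exon copies and the comparison of promoters were added after the values were seen. The software was Python 3.11.15 with numpy 2.4.6, numba 0.67.0, pandas 2.3.3, scipy 1.17.1 and matplotlib 3.10.9.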

Additional observations from a re-analysis of the deposited data

How the results depend on the processing

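Scaling reversed the direction of up to 4 of the 8 members. Setting the libraries to the same 75th percentile, to an equal sum without the 100 highest genes, or to an equal median over genes averaging 100 or more added 0.39, 0.56 and 1.00 to every log2 ratio, and the changes below follow from that. Of the 8 members, 5 were lower as deposited, 3 with the equal sum and 1 with the equal median of higher genes. With the equal sum the ratio was 1.10 for *Tet1* and 1.03 for *Tet2*, and with the equal median of higher genes it was 1.26 for *Dnmt1*, 1.49 for *Tet1*, 1.40 for *Tet2* and 1.30 for *Tet3*. *Dnmt3a* kept a ratio below 1, with an interval that includes 1 under the equal median of higher genes, and lost its place past 2-fold, since the count of members at least 2-fold lower was 0 under each of the 4 scalings, with a pseudocount of 10 and at 3-fold, and 3 at 1.5-fold. Over all genes, the share at least 2-fold lower was 8.86%, 6.54% and 3.51% under the 3 scalings in that order, and the share at least 2-fold higher 12.0%, 17.2% and 37.2%, or 1.59% over genes above the median of mean expression. Of 56 pathway genes, 7 were at least 2-fold lower with the same 75th percentile, 1 with the equal median of higher genes and 31 after subtraction of the olfactory receptor median, which widens ratios by construction, and 11 were at least 2-fold higher with the equal median. With the shortest annotated transcripts, some of which are fragments, WT reads would be 16 for *Dnmt3a* and 22 for *Tet1*, and the ratio intervals of *Dnmt3a*, *Tet1* and *Tet3* would include 1. No paired analysis was possible because there is a single library of each genotype.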
